A study of Rattus norvegicus with 2 samples.

Results

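The collagen chain genes were examined in single heart cells of newborn rats, with and without bacterial lipopolysaccharide (LPS). They were chosen by name: every gene whose symbol reads Col, a type number, the letter a and a chain number, with nothing after. Of the 25399 genes in the deposited gene list, 43 met the rule. They comprise 11 fibrillar chains, 8 basement membrane chains and 24 chains of other types (fibril-associated, network-forming, beaded-filament, anchoring-fibril and transmembrane collagens). Of the 43 genes, 18 had at least 1000 unique molecular identifiers (UMIs, the counted mRNA molecules) over both libraries, 10 had fewer but at least 50, 12 had 1 to 49, and 3 had none (Col2a1, Col23a1 and Col28a1).

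Collagens are built from 3 chains wound into a triple helix. Fibrillar collagens such as types I and III form the tensile fibres of the heart's interstitium and are made mainly by fibroblasts. Type IV forms the sheet of the basement membrane beneath endothelial cells and around muscle and mural cells, where types XV and XVIII are attached as multiplexins. Type VI forms beaded filaments close to cells, and fibril-associated types such as XII and XVI decorate the surface of fibrils.

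The cells came from hearts of Sprague-Dawley rats aged 1 to 3 days, males and females pooled. They were dissociated with trypsin and passed over a Percoll gradient meant to enrich intrinsic cardiac adrenergic (ICA) cells, the cell type given on both labels. The control cells then received saline and the others LPS at 1 µg/ml, for 2 h in culture. One 3′ droplet library was made of each condition, so no difference between libraries has a replicate check and none was tested. Intervals below are 95% and cover counting error only.

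The control library held 11531 cells with 152624585 UMIs (median 12479 per cell), and the LPS library 12689 cells with 127580475 UMIs (median 9432). A barcode shared by both libraries occurred in 194 cells of each. The submitters' clusters were used, which were computed from all genes including collagens, so differences between clusters are descriptions. Clusters 0, 1 and 7 carry the submitters' label Fibroblast (cluster 0 holds 13630 of the 24210 clustered cells), 3 the label ICA and Cardiomyocyte, 4 and 5 Endothelial, and 6 Macrophages. Clusters 2, 8, 9 and 10 are unlabelled. Cluster 2 is called mural-like here, because Rgs5, Kcnj8, Abcc9 and Rgs4 were among its 10 leading genes, and cluster 8 mesothelial-like, because Msln and Upk1b were among its leading genes and its mesothelial marker sum was 609 UMIs per 1000000 UMIs of the cluster (CPM) in control against 26.6 in cluster 0. Clusters 9 and 10 are given by number. Cluster 3 held 1765 of the cells, so most cells that the sample labels call ICA lay in clusters with other names.

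Collagen chains made up 0.816% of all UMIs in the cluster 0 fibroblasts of the control library (95% interval 0.815 to 0.818%) and 0.673% in the LPS library (0.671 to 0.675%). The other fibroblast clusters were close to this, at 0.824% and 0.680% in cluster 1 and 0.817% and 0.715% in cluster 7. The mural-like cells of cluster 2 gave 0.683% in control and 0.543% with LPS. In endothelial cluster 4 the shares were 0.407% and 0.310%, in cluster 3 they were 0.372% and 0.317%, and in macrophages 0.314% and 0.226%. The share was lower in the LPS library in each of the 11 clusters, with ratios from 0.718 (cluster 6) to 0.875 (cluster 7). These ratios are not centred, and the median log2 ratio of all tested genes was -0.30 in cluster 6 and -0.02 in cluster 7. The 11 ratios are not read as separate observations, since the part of free RNA from lysed cells in them was not tested.

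The classes did not share 1 ratio. In cluster 0 the fibrillar share was 0.796 times as high in the LPS library (0.793 to 0.799), while the basement membrane share was 0.970 times (0.961 to 0.980) and that of the other chains 0.927 times (0.914 to 0.940). In endothelial cluster 4 the fibrillar ratio was 0.623 (0.610 to 0.636) and the basement membrane ratio 0.952 (0.932 to 0.973). In endothelial cluster 5 the same ratios were 0.614 (0.593 to 0.636) and 1.02 (0.977 to 1.07). The median log2 ratio of all tested genes was itself -0.13 in cluster 0, -0.12 in cluster 2 and -0.09 in cluster 4. Relative to that median, the fibrillar chains stood at -0.20, -0.35 and -0.60, and the basement membrane chains at 0.09, -0.03 and 0.02, so the side on which the basement membrane chains fall depends on the scaling in clusters 0 and 4.

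A balance within each library does not depend on scaling. Per fibrillar UMI, control cluster 0 held 0.139 basement membrane UMIs and LPS cluster 0 held 0.170, a factor of 1.22 (1.21 to 1.23). The factor was 1.53 in cluster 4 (1.496 to 1.56), where the balance went from 0.747 to 1.14, and 1.67 in cluster 5 (1.59 to 1.75). In cluster 7, the fibroblasts with the highest interferon-response marker sum, it was 1.003 (0.930 to 1.08). Endothelial cluster 4 thus gave the most basement-membrane-weighted collagen UMIs, with 40.1% in that class in control and 50.1% with LPS. Cluster 0 gave 11.4% and 13.5%. The fibrillar UMIs include Col1a1 and Col3a1, which stood in control cluster 4 at 31.85% and 33.24% of their cluster 0 levels. As described below, levels of these chains in clusters 4 and 5 are not read as expression by endothelial cells. The part of free RNA from lysed cells in the balances, factors and shares of these clusters was not tested.

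**Figure D1:**
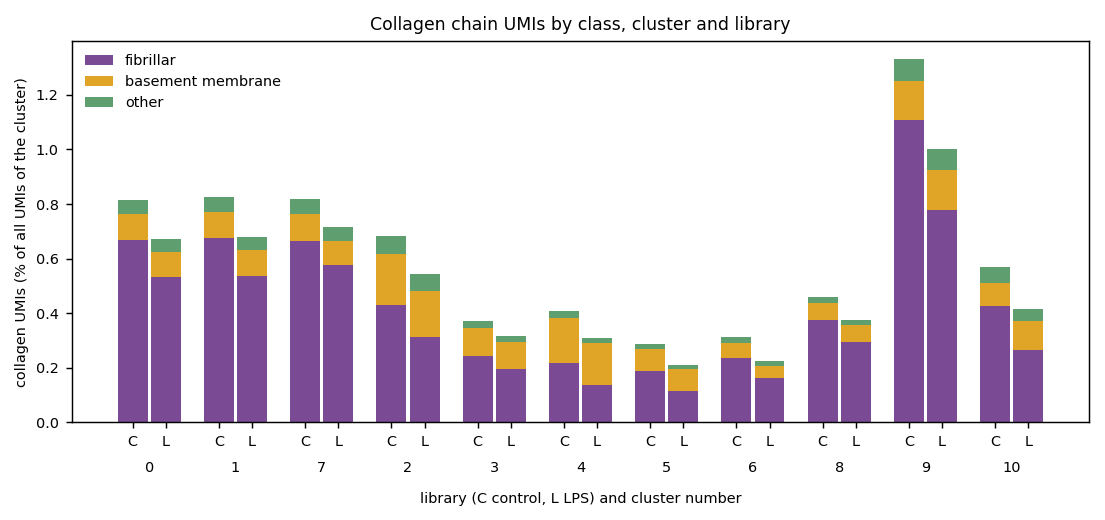
Stacked bars of collagen chain UMIs as a percentage of all UMIs of each cluster, for the control (C) and LPS (L) library, split into fibrillar, basement membrane and other chains. The LPS bar is the shorter in all 11 clusters, from 0.816% to 0.673% in cluster 0, and the gold basement membrane part is nearly as tall in both bars of cluster 4.

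Type I collagen is the main fibrillar collagen of the heart, and Col1a1, its α1 chain, was the most abundant member with 983777 UMIs over both libraries. In cluster 0 its level was 4412 CPM in control (4398 to 4426) and 3713 with LPS (3700 to 3727), a ratio of 0.842 (0.838 to 0.846). Mural-like cluster 2 gave 2549 and 1917 CPM, and endothelial cluster 4 gave 1405 and 914. The highest level, 7052 and 5285 CPM, was in cluster 9, which had 66 control and 58 LPS cells. Fibroblast clusters 0, 1 and 7 lay within 4383 to 4642 in control, all above cluster 2, and the intervals of cluster 0 and 7 overlap.

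Cluster 9 was not uniform. Of its 66 control cells, 38 had collagen at 1% or more of their UMIs and 22 had less than 0.5%. The 38 cells held 10177 CPM of the fibroblast markers and 332 of the cardiomyocyte markers, with a median mitochondrial share of 8.67%. The 22 cells held 1196 and 7837 CPM of these markers, with 53.2% mitochondrial UMIs. Levels of cluster 9 are therefore averages over cells of both kinds, and it enters no count of members past the fold below.

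Col3a1, the single chain of type III collagen, had the second most UMIs of the members over both libraries. In cluster 0 it stood at 2087 CPM in control and 1482 with LPS, a ratio of 0.710 (0.705 to 0.715). The LPS ratio was 0.683 in cluster 2 (0.666 to 0.701) and 0.575 in cluster 4 (0.553 to 0.597). Control Col3a1 per Col1a1 was 0.473 in cluster 0 (0.470 to 0.476), 0.486 in cluster 3 (0.470 to 0.502), 0.494 in cluster 4 (0.480 to 0.507) and 0.479 in cluster 6 (0.455 to 0.503). Cluster 2 lay above these with 0.630 (0.617 to 0.643), and cluster 1 lay below with 0.412 (0.407 to 0.416). Cluster 9, with 0.527 (0.497 to 0.560), and cluster 10, with 0.547, had higher values whose intervals overlap those of clusters 3, 4 and 6. With LPS the quotient was lower in each of the 11 clusters, at 0.399 in cluster 0 and 0.573 in cluster 2. In cluster 10 the intervals overlap (0.460 to 0.650 in control and 0.337 to 0.526 with LPS). The quotients of clusters 3 to 6 are not read as further observations, since the part of free RNA in them, described next, was not tested.

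Free RNA from lysed cells can put fibroblast transcripts into every droplet, and macrophages served as the cell type that should lack these chains. In control macrophages Col1a1 stood at 35.1% of its cluster 0 level, Col3a1 at 35.5% and Col1a2 at 35.3%, while 8 fibroblast markers that are not collagens (Mfap4 is not in the gene list used) stood at 27.99 to 139%, median 35.8%. After each cell was thinned to 3000 UMIs, 92.5% of control macrophages and 99.9% of control cluster 0 cells held a Col1a1 UMI, and 70.8% and 98.9% held a Col3a1 UMI. Unthinned median depths were 8846 and 12968 UMIs. Cluster 4 gave 92.95% for Col1a1 and 75.8% for Col3a1, and cluster 3 gave 95.3% and 77.9%. Levels of Col1a1, Col3a1 and Col1a2 in clusters 3 to 6 are therefore not read as expression by those cells. The part of free RNA in the LPS ratios of fibrillar chains there was not tested.

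The highest of these markers in clusters 2, 3, 4 and 6 of both libraries was Gsn, which other cell types also express. In control macrophages Gsn stood at 139% of its cluster 0 level and the other 7 markers at 27.99 to 42.6%. Chains whose interval lay above that of every marker, Gsn included, were the same in both libraries. They were Col4a4, Col4a5 and Col18a1 in cluster 3, Col4a1, Col4a2, Col15a1 and Col18a1 in cluster 4, and Col4a1, Col4a2, Col8a1, Col12a1 and Col18a1 in cluster 2. In cluster 5 they were Col4a1, Col4a2, Col4a5, Col18a1 and the fibrillar chain Col5a1, at 103.7% in control (80.2 to 132.1). The highest upper bound of a marker in control was 57.7% in cluster 5 and 82.96% in cluster 4, but 153.9% in macrophages. Control macrophages held Col4a2 at 79.4 to 134.5% and Col5a1 at 58.3 to 112.3%. These intervals overlap those of Col4a2 in clusters 4 and 5 and of Col5a1 in cluster 5. Passing the markers there therefore does not set these chains apart from macrophages. With Gsn set apart, 16 of 18 chains lay above in control and 9 with LPS in cluster 2. Col1a1 and Col3a1 were among them in control only. Col1a1 stood there at 57.8% in control and 51.6% with LPS and Col3a1 at 76.9% and 74.05%. The highest marker, Tcf21, stood at 39.7% and 67.8%. The same counts were 8 and 3 in cluster 3, where the highest marker, Fbln1, stood at 47.5% and 62.2%. They were 10 and 13 in cluster 4, where the highest, Pdgfra, stood at 32.9% and 25.2%. The counts therefore also carry the change of the markers. In macrophages 0 of the 18 most abundant chains lay above Gsn, but against the other 7 markers Col4a2 (104%), Col5a1 (82.0%), Col6a1 (68.3%) and Col4a1 (59.8%) did in control, so chain levels there were not all at the level of those markers.

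**Figure D2:**
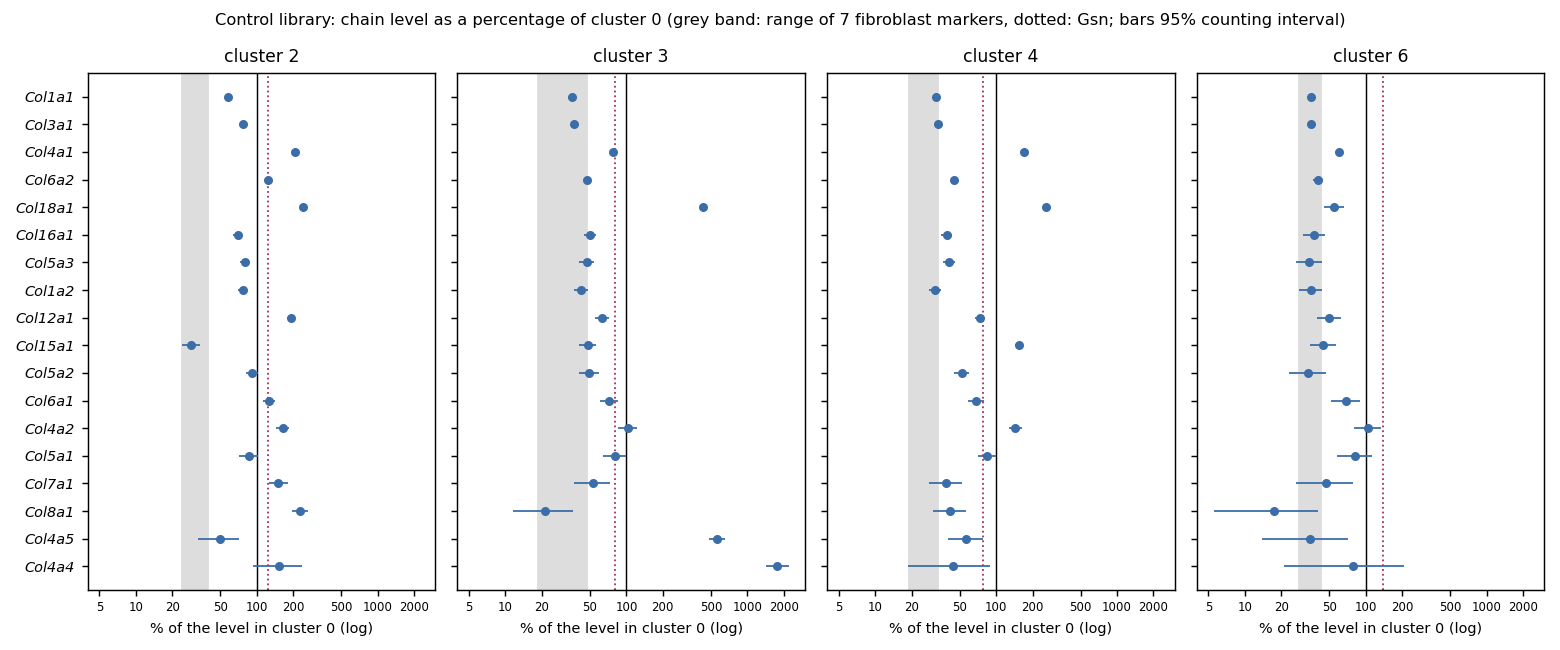
Control level of 18 chains in clusters 2, 3, 4 and 6 as a percentage of their level in cluster 0 (log axis, 95% counting intervals); the grey band spans 7 fibroblast markers and the dotted line is the eighth, Gsn. Col4a4, Col4a5 and Col18a1 lie right of both in cluster 3, and Col4a1, Col15a1 and Col18a1 in cluster 4. In macrophage cluster 6 Col4a2 and Col5a1 lie right of the band but left of Gsn.

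Col1a2, the α2 chain that joins α1 chains in type I collagen, had far fewer UMIs than Col1a1. Its level in cluster 0 was 79.2 CPM in control (77.4 to 81.1) and 39.4 with LPS (38.0 to 40.8), a ratio of 0.497 (0.476 to 0.519). The ratio was 0.505 in cluster 2 (0.434 to 0.587), 0.489 in cluster 4 (0.391 to 0.608) and 0.504 in cluster 6 (0.330 to 0.754). It ran from 0.420 (cluster 7) to 0.648 (cluster 5, 0.457 to 0.914) over clusters 0 to 9, and cluster 10 had 6 UMIs in each library. The sequence upstream of its start is shown because this chain gave a ratio near 0.5 in clusters 0 and 2 while Col1a1, whose protein joins the same helix, did not. The ratios of clusters 4 and 6 are not read as further observations, since the part of free RNA in them was not tested. It is 250 bases ending 1 base before the RefSeq start (GRCr8, chr4:33518307-33518556, plus strand), with capitals on matches to CCAAT or TATAAA on either strand (CCAAT reads ATTGG on the other).
Col1a2: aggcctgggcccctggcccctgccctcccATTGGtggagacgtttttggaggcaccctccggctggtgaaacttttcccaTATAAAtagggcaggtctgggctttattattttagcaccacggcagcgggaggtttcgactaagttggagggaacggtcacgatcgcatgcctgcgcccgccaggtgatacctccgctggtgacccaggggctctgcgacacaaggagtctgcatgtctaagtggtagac
Both matches are descriptions: CCAAT is found on either strand in 34% of the 33469 RefSeq windows of this length, and TATAAA in 12.9%. A window was given for 34 of the 43 members, Col1a1 and Col3a1 not among them.

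Type V collagen starts fibrils and sets their width. Its chain Col5a1 had the lowest LPS ratio of the 18 abundant members in cluster 0, at 15.7 CPM in control and 6.70 with LPS, a ratio of 0.428 (0.385 to 0.474). Col5a1 was also nearly flat across clusters, between 12.6 (cluster 3) and 16.4 (cluster 7) CPM in control for clusters 0 to 8, so its level did not follow the fibroblast markers. Its partner Col5a2 stood at 34.5 and 23.1 CPM in cluster 0, a ratio of 0.669 (0.631 to 0.710), and at 17.9 and 6.57 in cluster 4, a ratio of 0.368 (0.273 to 0.489). The third chain, Col5a3, was nearly level in cluster 0 with 64.3 and 62.3 CPM, a ratio of 0.970 (0.933 to 1.01). Within 1 collagen type the ratios of cluster 0 thus ran from 0.428 to 0.970, with intervals that do not overlap.

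Of the scarcer fibrillar chains, Col11a1, a chain of cartilage fibrils that is also made in developing heart, counted 290 UMIs in control cluster 0 and 100 with LPS, a ratio of 0.423 (0.334 to 0.533). Col27a1 counted 72 and 30, a ratio of 0.511 (0.322 to 0.793). Col24a1 moved the other way, with 123 and 167 UMIs and a ratio of 1.67 (1.31 to 2.12). These 3 chains lay below 4 CPM in cluster 0, where few counts carry each ratio. Col11a2 had 71 UMIs over all cells of both libraries.

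Type IV collagen is assembled from up to 6 chain genes that lie in head-to-head pairs. Col4a1 was the most abundant basement membrane member and was highest in cluster 2, at 1646 CPM in control (1620 to 1672) and 1493 with LPS (1467 to 1520). Endothelial cluster 4 came next with 1351 (1330 to 1373) and 1314 (1291 to 1337), ahead of cluster 0 with 790 and 774. Macrophages had the lowest level among the labelled clusters, 472 and 385. The LPS ratio of Col4a1 was 0.979 in cluster 0 (0.968 to 0.990), 0.907 in cluster 2 (0.886 to 0.929) and 0.972 in cluster 4 (0.9495 to 0.996). Scaled to the median gene, it lay above 1 in clusters 0 and 4.

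Col4a2, the gene next to Col4a1 and read in the opposite direction, had 1 UMI for about 42.1 of Col4a1 in control cluster 0 (interval of this quotient 40.1 to 44.2). Its own level there was 18.8 and 11.7 CPM, a ratio of 0.622 (0.572 to 0.675). It was 0.650 in cluster 2 (0.535 to 0.790), 0.649 in cluster 4 (0.535 to 0.786) and 0.424 in cluster 3 (0.296 to 0.598). Both genes of this pair start from 1 short stretch, with 76 bases between their RefSeq start sites. That stretch is shown because its genes had different LPS ratios (GRCr8, chr16:84885521-84885596, printed on the plus strand, which is that of Col4a1). Capitals mark GGGCGG, here as CCGCCC on the other strand. The stretch upstream of Col4a4 is shown because that chain was the only one above 1000 UMIs with a ratio over 1.5 in cluster 0 (chr9:91323578-91323827, minus strand, 250 bases upstream of its start). It holds none of the 3 motifs.
Col4a2 to Col4a1: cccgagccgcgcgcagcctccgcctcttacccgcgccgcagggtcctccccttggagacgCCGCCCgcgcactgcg
Col4a4: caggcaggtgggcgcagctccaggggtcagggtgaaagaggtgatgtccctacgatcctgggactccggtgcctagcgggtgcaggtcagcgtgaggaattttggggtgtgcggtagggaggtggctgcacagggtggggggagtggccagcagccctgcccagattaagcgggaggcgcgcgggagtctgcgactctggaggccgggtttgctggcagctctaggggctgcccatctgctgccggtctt
GGGCGG on either strand was found in 30.5% of the 250-base windows and in 18.1% of the 76 bases nearest the start.

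Col4a4 and Col4a5 belong to the chains of specialised basement membranes, best known from kidney glomeruli. Both were highest in cluster 3, the ICA and Cardiomyocyte cluster. The cardiomyocyte marker sum of cluster 3 was 14666 CPM in control against 275 in cluster 0, and the paper places ICA cells in a subcluster of it. Which cells of cluster 3 held its collagen UMIs was not tested. Col4a4 stood there at 28.5 CPM in control (24.7 to 32.8) and 34.1 with LPS (29.4 to 39.4), against 1.62 and 3.32 in cluster 0, so its control level was 17.6 times that of cluster 0. Col4a5 stood at 36.7 (32.4 to 41.5) and 42.9 (37.6 to 48.7) in cluster 3, against 6.51 and 5.07 in cluster 0 and 2.25 and 3.22 in macrophages. In cells thinned to 3000 UMIs, 7.66% of control and 10.5% of LPS cells of cluster 3 held a Col4a4 UMI, against 0.356% and 0.345% of macrophages. For Col4a5 the shares were 11.7% and 10.9% in cluster 3. Macrophages gave 0.690% with LPS. Cluster 3 also had the highest mitochondrial share of the labelled clusters, a median of 17.9% in control and 17.3% with LPS against 3.37% and 2.94% in cluster 0, and the part of this in its levels was not tested.

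The LPS ratio of Col4a4 was 2.05 in cluster 0 (1.66 to 2.53) and 1.79 in cluster 2 (1.04 to 3.16), from 147 and 245 UMIs and from 23 and 37 UMIs. In cluster 3, where the gene was highest, it was 1.20 (0.975 to 1.47), an interval that includes 1. In cluster 0 the gene stood at 1.62 CPM in control and 3.32 with LPS. Macrophages were near this, at 1.28 CPM (0.350 to 3.29) and 2.41 CPM (0.886 to 5.25) from 4 and 6 UMIs. The part of free RNA in the ratios of clusters 0 and 2 was not tested. Col4a3, whose start lies 412 bases from that of Col4a4 and whose chain joins Col4a4 and Col4a5 in 1 helix, had 6 control and 24 LPS UMIs over all cells. In cluster 3 it had 1 and 4 UMIs beside 202 and 187 of Col4a4. Col4a6 had 3 and 1 UMIs in all.

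Col18a1, the multiplexin whose C-terminal fragment is endostatin, was also highest in cluster 3, with 289 CPM in control (276 to 301) and 306 with LPS (292 to 321). Cluster 10, of 42 cells, had 306 and 295 with wide intervals that overlap these. Clusters 4 and 2 followed at 172 and 162 in control, whose intervals overlap each other, and cluster 0 stood at 66.9. A Col18a1 UMI was found in 54.3% of thinned control cells of cluster 3, 37.8% of cluster 4, 17.3% of cluster 0 and 7.83% of macrophages. The LPS ratio was 1.18 in cluster 1 (1.09 to 1.27) and 1.07 in cluster 0 (1.04 to 1.12), but 0.896 in cluster 2 (0.830 to 0.966), 0.855 in cluster 4 (0.797 to 0.916) and 0.819 in cluster 5 (0.708 to 0.946). In log2 units the ratio of cluster 2 was -0.16, beside -0.12 for the median of all tested genes there.

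Col15a1, the other multiplexin, differed between the endothelial clusters. It stood at 76.2 CPM in control cluster 4 (71.2 to 81.5) and 70.2 with LPS (65.0 to 75.6), but at 16.9 and 17.8 in endothelial cluster 5. Mural-like cluster 2 had only 14.3 and 10.7, below cluster 0 with 49.8 and 40.2. In cluster 2 its 14.3 CPM was 28.8% of the cluster 0 level, near the 28.4% median of the fibroblast markers there. The LPS ratio was 0.809 in cluster 0 (0.772 to 0.847) and 0.920 in cluster 4 (0.831 to 1.02).

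**Figure D3:**
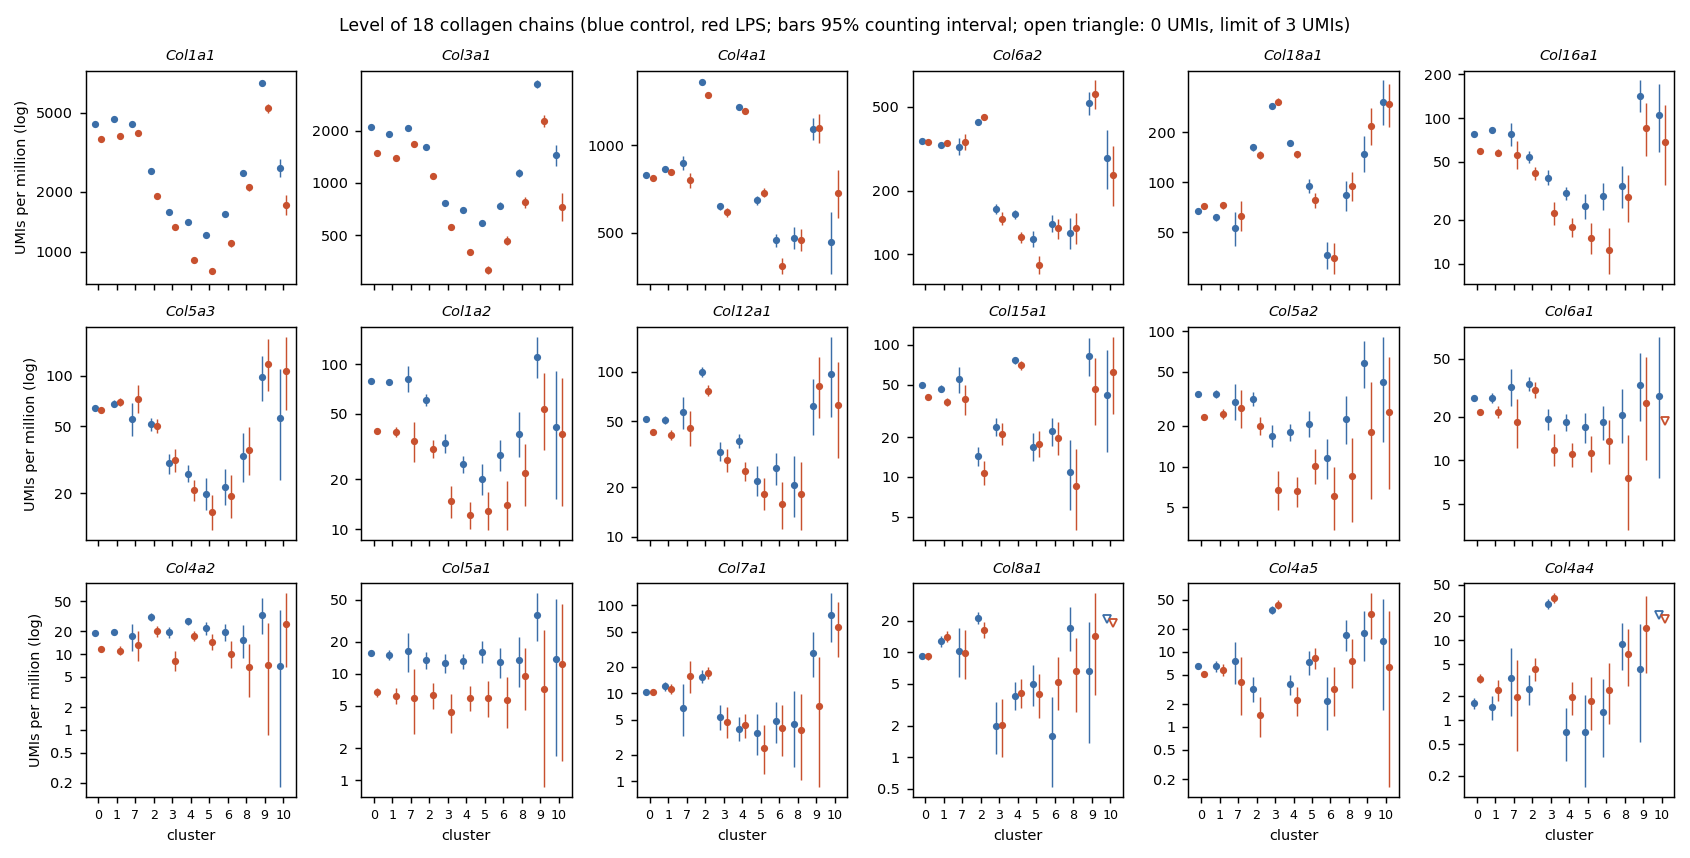
Level of each of 18 chains in every cluster, in CPM on log axes, for the control (blue) and LPS (red) library with 95% counting intervals; open triangles mark 0 UMIs at the limit that 3 UMIs would give. Col1a1, Col3a1 and Col1a2 are highest in clusters 0, 1, 7 and 9, Col4a1 and Col12a1 stand high in cluster 2, Col15a1 in cluster 4, and Col4a4, Col4a5 and Col18a1 in cluster 3.

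Type VI collagen links cells to the interstitial matrix. Col6a2 stood at 345 CPM in control cluster 0 and 342 with LPS, a ratio of 0.992 (0.976 to 1.01), and was higher in cluster 2 with 425 and 449. In cluster 4 it stood at 155 and 120, a ratio of 0.778 (0.722 to 0.839). The control level of cluster 4 was 44.9% of that of cluster 0 (42.7 to 47.1), beside 40.5% in macrophages (36.8 to 44.6). The part of free RNA in the cluster 4 level and ratio of Col6a2 was not tested. Col6a1, the neighbour of Col6a2, was at 26.8 and 21.5 CPM in cluster 0, a ratio of 0.804 (0.754 to 0.857). Col6a6 had 91 and 39 UMIs in cluster 0, a ratio of 0.526 (0.352 to 0.773), and Col6a5 and Col6a4 had 6 and 2 UMIs in all. Col6a3, the remaining chain of the common type VI helix, is not in the gene list under that symbol and has no values here.

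The fibril-associated chains differed in place. Col12a1, a chain of tendon and stressed matrix, was highest in cluster 2 among clusters 0 to 8, with 99.6 CPM in control (93.3 to 106) and 76.7 with LPS (70.9 to 82.8), against 51.9 and 43.0 in cluster 0. Col16a1 followed the fibroblasts, with 77.9 and 59.5 in cluster 0, a ratio of 0.764 (0.735 to 0.793), and 54.0 and 41.8 in cluster 2. Col14a1, which sits on type I fibrils, had 388 and 176 UMIs in cluster 0, a ratio of 0.557 (0.463 to 0.667). Its highest level in a cluster of 100 cells or more was 8.10 CPM, in control cluster 8, from 9 UMIs.

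Col8a1, a network-forming chain of vessel walls, stood at 21.3 CPM in control cluster 2 (18.4 to 24.4) and 16.4 with LPS (13.8 to 19.4), against 9.28 and 9.14 in cluster 0 and 1.98 and 2.01 in cluster 3. Its partner Col8a2 had 266 and 235 UMIs in cluster 0, a ratio of 1.08 (0.906 to 1.30). Col7a1, which forms anchoring fibrils under epithelia, stood at 10.2 and 10.4 CPM in cluster 0 and 15.4 and 17.02 in cluster 2, with ratios of 1.02 (0.922 to 1.12) and 1.11 (0.872 to 1.41). Cluster 10 had 76.5 and 56.5 from 11 and 9 UMIs. Of the transmembrane collagens, Col17a1 had 206 and 84 UMIs in cluster 0, a ratio of 0.5003 (0.384 to 0.648), and Col13a1 had 26 and 32, a ratio of 1.51 (0.872 to 2.64).

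A member was counted as higher or lower when its LPS ratio passed 1.5-fold, among genes with at least 50 UMIs over both libraries in that cluster. In cluster 0, 8 of 26 such members were lower (Col1a2, Col4a2, Col5a1, Col6a6, Col11a1, Col14a1, Col17a1 and Col27a1) and 3 were higher (Col4a4, Col13a1 and Col24a1), where 19.7% of all 12247 tested genes were lower and 6.88% higher. In cluster 1, 6 of 22 were lower and Col4a4 was higher, against 13.1% and 6.42% of all genes. In mural-like cluster 2, 4 of 17 were lower (Col1a2, Col4a2, Col5a1 and Col5a2) and Col4a4 was higher, against 13.3% and 5.78%. In cluster 3, 6 of 17 were lower and 0 higher, against 5.26% and 4.36%.

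Before any centring, the endothelial clusters had the larger shares of lower members. After the centring given below, cluster 5, with 4 of 15, no longer stood above macrophages, with 5 of 14. In cluster 4, 10 of 17 members were lower and 0 higher, where 13.1% of all genes were lower and 5.58% higher, and both Col1a1 and Col3a1 were among the 10. In cluster 5, 8 of 15 were lower and 0 higher, against 13% and 9.5%. In macrophages 7 of 14 were lower and 0 higher, against 30.3% and 8.79%. These counts include chains whose levels in clusters 3 to 6 are not read as expression by those cells. They are Col1a1, Col1a2 and Col3a1 in clusters 4 and 5, Col1a2 and Col3a1 in macrophages, and Col1a2 in cluster 3. Of the other members lower in macrophages, control Col5a2 and Col16a1 stood at 33.5% and 37.5% of their cluster 0 levels. The 7 markers other than Gsn stood there at 27.99 to 42.6%. Col12a1 (50.1%), Col5a1 (82.0%) and Col4a2 (104%) lay above that range. The part of free RNA in the ratios of any member lower in clusters 3 to 6 was not tested. The median log2 ratio of the tested members was -0.31 in cluster 0, -0.37 in cluster 2 and -0.62 in cluster 4, beside -0.13, -0.12 and -0.09 over all genes. After the ratios were centred on the median gene, 15.3% of genes were lower and 9.23% higher in cluster 0, with 7 and 3 members, and 10.2% and 6.93% in cluster 4, with 7 and 0 members. Col1a1, at a log2 ratio of -0.62 in cluster 4 before centring, was not among the 7 there. In cluster 2 the centred figures were 9.47% and 7.57%, with 2 and 1 members. In macrophages they were 15.7% and 16.1%, with 5 and 0, and in cluster 5 they were 11.3% and 10.9%, with 4 and 0. In cluster 3 they were 5.17% and 4.48%, with 6 and 0.

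**Figure D4:**
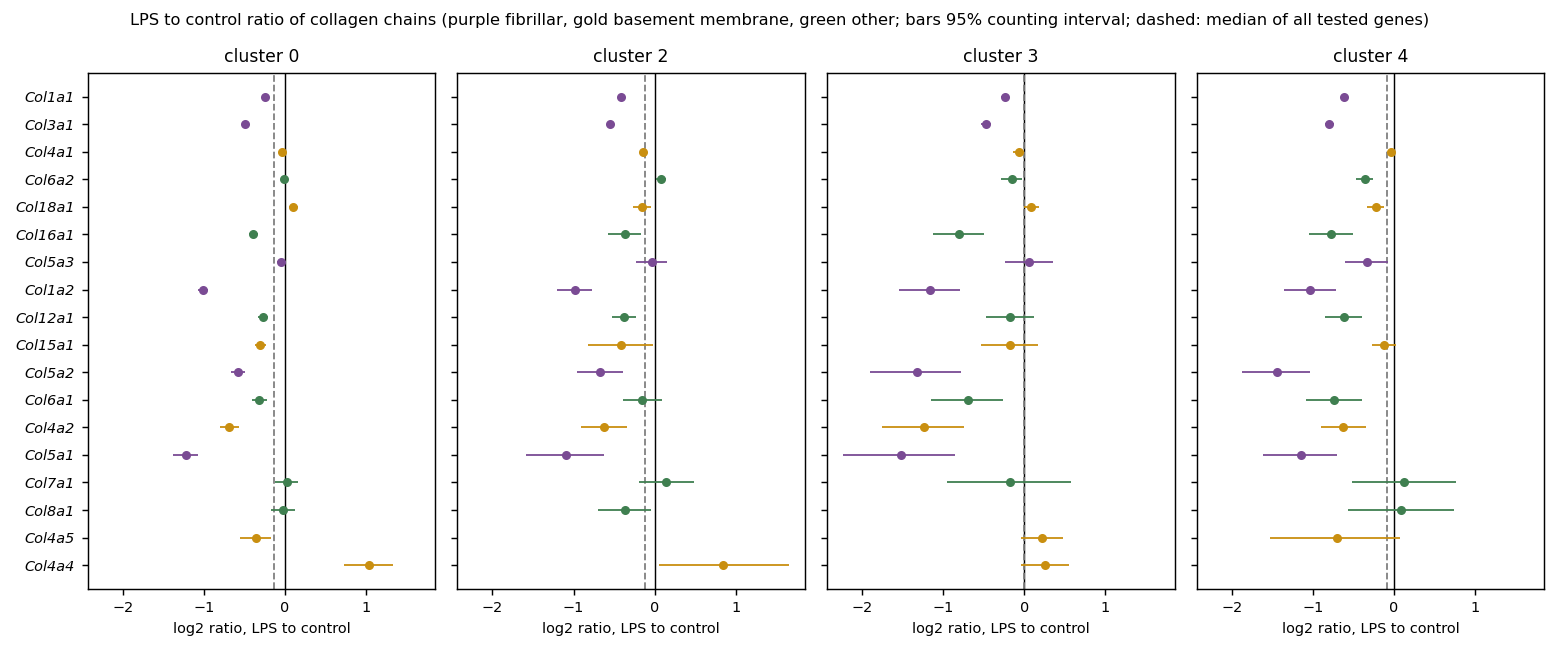
log2 ratio of LPS to control for 18 chains in clusters 0, 2, 3 and 4, with 95% counting intervals, coloured by class; chains with fewer than 50 UMIs in a cluster are not drawn and the dashed line is the median of all tested genes. Col1a2 and Col5a1 lie near -1 or below in each panel, Col4a1 lies near 0, and Col1a1 and Col3a1 lie further left in cluster 4 than in cluster 0. Levels of Col1a1, Col3a1 and Col1a2 in clusters 3 and 4 are not read as expression by those cells.

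For partner chains of 1 collagen type, the intervals of the balance were apart between the libraries in some clusters and overlapped in others. Col1a1 per Col1a2 was 55.7 in control cluster 0 (54.4 to 57.0) and 94.3 with LPS (90.9 to 97.9). In cluster 2 it was 42.1 (38.7 to 45.9) and 62.6 (55.4 to 71.1), but in cluster 5 it was 61.1 (49.3 to 76.6) and 61.5 (47.6 to 80.9). Col4a1 per Col4a2 was 42.1 and 66.2 in cluster 0, and 49.9 (44.6 to 56.2) and 74.8 (64.3 to 87.5) in cluster 4. Col5a2 per Col5a1 was 2.203 and 3.45 in cluster 0 but 1.35 (1.09 to 1.69) and 1.103 (0.761 to 1.60) in cluster 4, with overlapping intervals. In cluster 0 Col6a2 per Col6a1 was 12.9 and 15.9. Col8a1 per Col8a2 there was 3.16 (2.75 to 3.64) and 2.87 (2.47 to 3.34), with overlapping intervals.

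In the pairs Col1a1 and Col1a2, Col4a1 and Col4a2, Col5a2 and Col5a1, and Col6a2 and Col6a1, the chain with fewer UMIs had the lower LPS ratio in cluster 0. This was not so for Col8a1 and Col8a2, nor for Col4a4, Col4a5 and Col4a3, which had fewer UMIs than Col4a2 and higher ratios. Over all genes the median log2 ratio in cluster 0 was -0.51 for the 1772 genes below 1 CPM, -0.25 for those at 1 to 10, -0.04 at 10 to 100, 0.02 at 100 to 1000 and -0.04 at 1000 or more, where the 2 members, Col1a1 and Col3a1, had a median of -0.37. The 4 scarcer partners lay at 10 to 100 CPM, where the lower quartile of all genes was -0.26 and the median of the 11 members -0.32. A 3′ count sees molecules whose end lies in the annotated transcript, so a quotient of 2 genes also carries how well each 3′ end is annotated. Its part in the 55.7 was not tested.

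**Figure D5:**
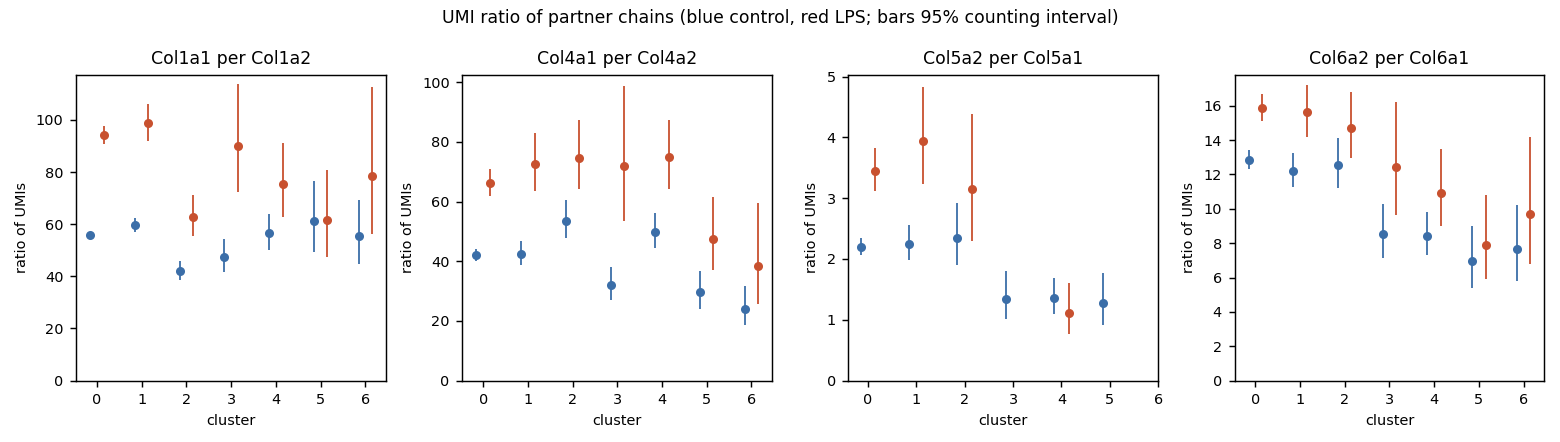
UMIs of the more abundant chain per UMI of its partner in clusters 0 to 6, in the control (blue) and LPS (red) library with 95% counting intervals; points with too few UMIs are left out. Col1a1 per Col1a2 goes from 55.7 to 94.3 and Col4a1 per Col4a2 from 42.1 to 66.2 in cluster 0, whereas type V in cluster 4 shows overlapping intervals.

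Collagen chains need enzymes to hydroxylate, fold and export them. Of 22 listed enzymes and chaperones, 19 were counted in cluster 0, of which 1 was higher and 4 lower, shares near the 6.88% and 19.7% of all genes. P4ha2, a catalytic subunit of prolyl 4-hydroxylase, went from 51.7 to 89.4 CPM, a ratio of 1.73 (1.66 to 1.79), and was higher in cluster 2 too, from 71.4 to 118. P4ha3, another catalytic subunit, went from 4.46 to 1.46, a ratio of 0.328 (0.263 to 0.407), and Sec24d, a coat protein of the vesicles that carry procollagen, from 13.3 to 6.35, a ratio of 0.477 (0.428 to 0.532). P3h2, with 61 and 28 UMIs, and Sec23a, with 214 and 110 UMIs, were the others. In cluster 2, of 17 counted, P4ha2 was higher and P4ha3, Tmem38b and Sec24d were lower, beside 5.78% and 13.3% of all genes. In cluster 4, 0 of 17 were higher and P4ha3, P3h3 and Sec24d were lower, beside 5.58% and 13.1% of all genes.

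The most abundant of these helpers was Serpinh1, the collagen chaperone HSP47, with 1174 and 1054 CPM in cluster 0, a ratio of 0.898 (0.890 to 0.906). Of 8 procollagen proteinases and enhancers, 6 were counted in cluster 0, of which 1 (beside 6.88% of all genes), Tll1, a relative of the C-proteinase Bmp1, was higher, with 23 and 101 UMIs and a ratio of 5.39 (3.4 to 8.88). Tll1 was higher in cluster 4 also, with 23 and 51 UMIs. Bmp1 itself stood at 37.4 and 32.6 CPM in cluster 0, and Pcolce, which enhances it, at 533 and 529.

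Lysyl oxidases cross-link collagen outside the cell. Of the 4 counted in cluster 0 none passed the fold, and Lox stood at 294 and 313 CPM. In cluster 4, where 13.1% of all genes were lower, 2 of 3 were lower, Loxl1 from 75.6 to 39.5 CPM, a ratio of 0.522 (0.461 to 0.590), and Loxl2 from 44 to 23 UMIs. Of the collagen receptors, 3 of 6 were lower in cluster 0, beside 19.7% of all genes. Itga11, the integrin subunit for fibrillar collagen on fibroblasts, went from 4.82 to 1.48 CPM, a ratio of 0.307 (0.246 to 0.379), and was lower in cluster 2 too, from 16.7 to 7.26. Ddr1, a collagen-binding kinase, went from 22.03 to 14.5, and Mrc2, which takes up collagen fragments, from 4.54 to 2.22. In cluster 4, Itga1, Itga11, Ddr1 and Mrc2 were the 4 of 6 that were lower, Itga1 from 22.6 to 12.2. These lists were chosen with earlier results of these data known, and their medians in cluster 0 were -0.16 for the enzymes, -0.12 for the proteinases, -0.25 for the lysyl oxidases and -0.41 for the receptors, beside -0.13 over all genes.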

How the data were processed

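Single-cell 3′ libraries (10x, version 2 chemistry) of 1 control and 1 LPS-treated preparation were analysed. The authors deposited raw UMI counts per gene and cell with cluster numbers. Per the labels, Cell Ranger 2.2.0 and Seurat 2.3.4 were used; the genome build is not given in the sources used here. For this report the counts were summed over the cells of each cluster and library (Python 3.11.15, numpy 2.4.6, scipy 1.17.1) and divided by all UMIs of that class, per 1000000 (CPM). Levels have exact Poisson intervals, ratios exact conditional intervals and shares of cells Clopper-Pearson intervals, all 95%, for counting error only. A call needed a 1.5-fold ratio (0.5 UMI added) and 50 UMIs. No replicates exist, so no test was run. The calls and intervals were tried on simulated Poisson counts. These hold no variation between cells or libraries, so the trial covers counting error only. Cells were not filtered further and doublets were not called; 2 control and 8 LPS cells have no cluster. Described chains had 1000 UMIs or more; of the rest, those past the fold in clusters of 500 cells or more were named, and the 3 with the highest level in a cluster of at least 100 cells (Col8a2, Col11a1 and Col14a1). Of the listed genes, those past the fold in cluster 0, 2 or 4 were named; Serpinh1, Bmp1, Pcolce and Lox were chosen after their values were seen. Setting the marker Gsn apart was chosen after seeing the data. The members and lists were chosen with earlier results of these data known. Names and promoter sequence come from RefSeq (GRCr8), which held all 43 symbols; no protein sequences were used. Overlapping genes lie on several members there, such as Sgca on Col1a1; the strand setting of the counting is not given in the sources used here.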

Additional observations from a re-analysis of the deposited data

Results flagged for a closer look

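Col18a1 was picked out because its LPS ratio lay above 1 in some clusters and below 1 in others by at least 1.1-fold each, with intervals that exclude 1. The ratio was 1.177 in the cycling fibroblasts of cluster 1, 0.8957 in mural-like cluster 2, 0.8545 in endothelial cluster 4 and 0.8188 in endothelial cluster 5. These ratios are not centred. In log2 units they were 0.24, -0.16, -0.23 and -0.29, beside medians of all tested genes of -0.07, -0.12, -0.09 and -0.06. Whether cluster 2 passes 1.1-fold therefore depends on the scaling. Cluster 9, whose cells were not uniform, also lay above 1, with 1.465 (1.018 to 2.104) from 67 and 61 UMIs. With 1 library per condition the difference between clusters was not tested, and the intervals cover counting error only.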

How the results depend on the processing

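With a single library in each condition, pairing and leaving out a replicate could not be done. No paired analysis was possible because the conditions share no second replicate number. Leaving out the 194 shared barcodes was chosen after seeing the data; it changed no sign of the class ratios. In cluster 0 the fibrillar log2 ratio, -0.33 as reported, was -0.34 without mitochondrial genes in the total and -0.34 as a mean of the cells' own levels, -0.19 with TMM scaling and -0.20 with median-of-ratios scaling. The basement membrane ratio there, -0.04 as reported, was 0.10 with TMM and 0.086 with median-of-ratios scaling, -0.059 without the 8% of cells with the most UMIs and -0.066 with cells thinned to 3000 UMIs. In cluster 4 the fibrillar ratio, -0.68, was -0.58 with TMM, -0.60 with median-of-ratios scaling, -0.64 without the 8% of cells with the most UMIs and -0.72 as a mean of the cells' levels. The basement membrane ratio there, -0.07, was 0.029 with TMM, 0.016 with median-of-ratios scaling and -0.038 with thinned cells.

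The 8 members lower in cluster 0 became 15 with no minimum of UMIs and 3 at 2-fold, and the 3 higher became 1 at 2-fold. The 10 lower in cluster 4 became 17 and 3. Shares of all genes at these settings were not computed, so these counts have no background beside them. Among single chains, Col4a1 turned in cluster 0 to 0.11 with TMM and 0.10 with median-of-ratios scaling, and in cluster 4 to 0.059, 0.046 and, with thinned cells, 0.0021. With thinned cells Col4a5 turned to 0.057 in cluster 0 and Col5a3 to 0.0021 in cluster 4. Ratios whose interval includes 1 also changed sign: with TMM Col5a3 went from -0.04 to 0.10, Col6a2 from -0.01 to 0.13 and Col8a1 from -0.02 to 0.12 in cluster 0, and with thinned cells Col4a5 from -0.71, one of the 10 lower, to 0.15 in cluster 4. Of 468 recomputed chain ratios in clusters 0, 2 and 4, 446 kept their sign. The cause of these changes was not tested; thinning and the higher minimum keep fewer UMIs by construction. Protein features of the chains were not computed. Chains below 1 CPM in a cluster, such as Col13a1 and Col27a1 in cluster 0, have wide intervals at this depth.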
